A study of Mus musculus with 6 samples.

Results

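Arginine and polyamine metabolism was followed through 10 genes of the 32285 in each deposited table: Arg1, Arg2, Ass1, Asl and Oat on the arginine side, and Odc1, Amd1, Srm, Sms and Sat1 on the polyamine side. The set was chosen by earlier measured values of the same data: Arg1 was lower in proliferating cells of the Cyto-ID High group, and the other genes were added for their place in the pathway. Arg1's difference between the sort groups, and its difference between cycling and other cells, which rests in part on the same values, are therefore described here and not tested. The samples were 6 droplet single-cell RNA libraries from organoids of mouse esophageal epithelium, all of strain C57BL6 and all collected at 15 days. The organoids were founded by esophageal epithelial cells that were integrin-b1 positive and DAPI negative, that is, basal cells with an intact membrane. The founders were also sorted by Cyto-ID, a dye of autophagic vesicles: 3 libraries came from Cyto-ID Low founders and 3 from Cyto-ID High founders. Each group has replicates F2, M3 and F6, and the labels do not say what these codes mean or how many animals or wells each pooled. If they are not separate animals, the spread between them is technical. No agent, transgene or deletion distinguished the groups in the labels.

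Arginase cleaves arginine to ornithine and urea. Ornithine can be turned into putrescine by ornithine decarboxylase, the committed step towards the polyamines spermidine and spermine, or into proline and glutamate precursors by ornithine aminotransferase. Polyamines are needed for growth and for the hypusine modification of the translation factor eIF5A. In stratified epithelia, basal cells divide and their progeny move upwards through suprabasal to superficial layers, changing their keratins on the way. Arginase 1 is best known from liver and from alternatively activated macrophages, and it is also made by keratinocytes.

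Of the 10 members, 6 had a RefSeq promoter window of assembly GRCm38.p6 (Amd1, Ass1, Oat, Odc1, Sat1 and Sms, with 7 windows in all). The 250 bases before each start were searched on both strands for CACGTG, the palindromic E-box, a site of the MYC and USF families of factors, because Odc1 is a textbook target of MYC. The windows of Ass1 and of 1 of 2 starts of Sms held it, 30 and 190 bases before the start, against 6.02% of 32851 windows genome-wide. The motif is shown in capitals with its flanks, 5′ to 3′ on the strand of the gene:
Ass1: cgcgcccgtcccCACGTGtcccaggttcct
Sms: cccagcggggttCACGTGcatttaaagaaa
The Ass1 stretch lies at chr2:31470222-31470251 on the plus strand, just inside the start of the gene as GENCODE annotates it, and the Sms stretch at chrX:157492466-157492495 on the minus strand, outside the GENCODE gene. The match is a description of these letters, and its absence from the other windows says nothing of the factors.

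Cells with at least 500 detected genes were kept, 25154 of 26808 barcodes. A cell was called cycling when at least 2 of Top2a, Mki67, Birc5 and Ube2c had a transcript count (UMI) above 0. Layers were set by the share of Krt4 and Krt13 among the UMIs of Krt5, Krt14, Krt15, Krt4 and Krt13: basal under 25%, intermediate from 25% to 50%, and suprabasal above 50%. Superficial cells were not basal and had at least 5000 CPM of the panel Sprr2f, Psca, Tspan1, Duoxa2 and Cnfn, to which Psca gives most. This left 2322 cycling basal, 14257 other basal, 1902 intermediate, 1189 suprabasal and 4107 superficial cells, the last 4 not cycling. Of the markers outside the rule, the basal list followed the layers: the sum of Trp63, Itga6, Itgb4 and Col17a1 ranged from 936 to 1995 CPM in other basal cells and from 76.1 to 152 CPM in superficial cells. The superficial list (Tgm3 and Sprr3) did not separate superficial from suprabasal cells, at 209 to 1345 against 224 to 423 CPM, so superficial here means high in the panel. CPM is a gene's UMI count relative to all UMIs of the cell, on the usual counts-per-mega-UMI scale, and all values below are its mean over the cells of a library.

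Libraries held between 8457489 and 48957523 UMIs, and the median kept cell had between 1940.5 and 10038 UMIs. Cycling cells made up 3.37% to 15.4% of kept cells, and the Cyto-ID Low F6 library held only 77 cycling basal cells. Pairs of libraries shared at most 10 cell barcodes. Epithelial markers were present in all 6 libraries, with Krt5 between 2916 and 4060 CPM. Of the 6 macrophage and monocyte markers, Adgre1 was at 0 in 6 of 6 libraries, Csf1r, Lyz2 and Mrc1 stayed under 1 CPM, Itgam reached 5.57 CPM and Cd68 22.0 CPM. The hepatocyte marker Alb and the leukocyte marker Ptprc were at 0 in 6 of 6 libraries.

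Arg1 (chr10:24915221-24927484, minus strand, GRCm38), the cytosolic arginase, rose from the base of the epithelium to its surface and was lowest in cycling basal cells. The 247 cycling cells outside the basal layer were not as low, at 1912 ± 874 CPM (SD, n = 6), and only 2 libraries held 50 of them. Over the 6 libraries its level was 261 ± 181 CPM in cycling basal cells, 709 ± 317 in other basal cells, 1983 ± 1057 in intermediate, 2606 ± 1637 in suprabasal and 5940 ± 1155 in superficial cells (SD, n = 6). The order from cycling basal to other basal to suprabasal to superficial held in each of the 6 libraries. Intermediate and suprabasal cells, neighbours in this order, differed in the mean by less than the spread between libraries. Suprabasal cells were above intermediate cells of the same library except in Cyto-ID High M3 (756 against 842 CPM). The share of mitochondrial UMIs moved with the layers, from 2.08% to 3.11% in cycling basal and 2.13% to 3.11% in other basal cells through 1.16% to 2.44% in suprabasal to 0.785% to 1.53% in superficial cells, and its part in the layer difference was not tested. Superficial cells were 6.58% to 28.0% of kept cells and held 42.6% to 73.6% of a library's Arg1 UMIs.

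**Figure D1:**
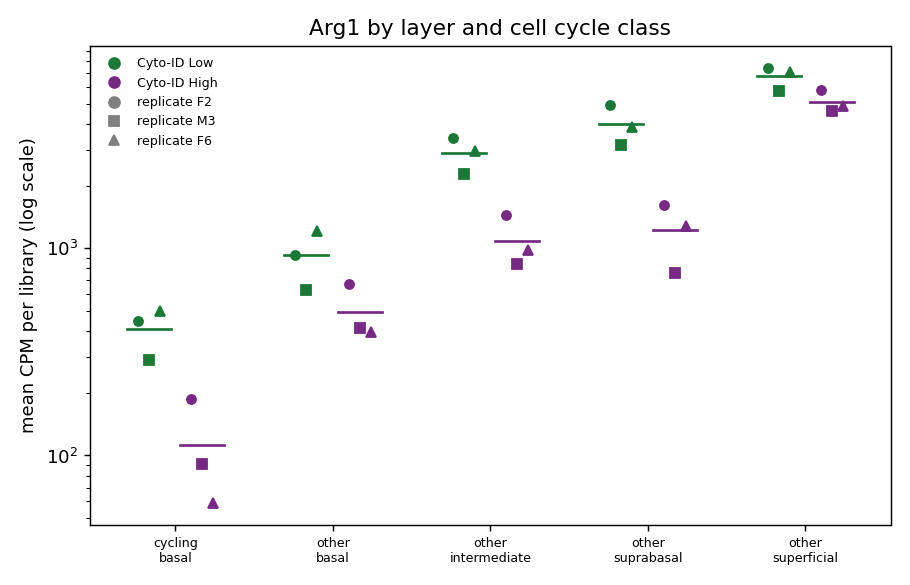
Mean Arg1 CPM per library (log axis) in cycling basal cells and in non-cycling cells of 4 layers. Each symbol is 1 library, shape gives the replicate, colour the sort group, and the line is the group mean of 3 libraries; levels run from 58.9 CPM in a cycling basal population to 7455 CPM in a superficial one, and Cyto-ID Low lies above Cyto-ID High with no overlap in cycling basal, intermediate and suprabasal cells.

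Within the basal layer, Arg1 was lower in cycling than in other cells of 6 of 6 libraries. In Cyto-ID Low it was (F2, M3, F6) 444, 288 and 497 CPM in cycling basal cells against 929, 627 and 1218 in other basal cells. In Cyto-ID High, in that order, it was 188, 91.3 and 58.9 against 672, 411 and 396 CPM. The measured level in cycling cells was between 0.149 and 0.478 of that in their non-cycling basal neighbours. Psca, the main gene of the superficial panel, was present at 41.7 to 816 CPM in cycling basal and 290 to 2114 CPM in other basal cells, against 32016 to 89112 CPM in superficial cells. How much of the low Arg1 level in basal cells is free RNA from lysed cells was not tested. The limma estimate with the library as a block, given without a test, was -1.79 ± 0.18 (log2, SE). Other lists were lower in cycling basal cells as well: Tgm3 and Sprr3 summed to 5.74 to 9.32 against 10.3 to 28.6 CPM in the Low group and 16.6 to 21.5 against 37.5 to 45.4 CPM in the High group, and the macrophage list to 7.57 to 9.69 against 11.4 to 13.8 CPM in the Low group. In the High group the macrophage list overlapped (3.83 to 17.4 against 4.47 to 9.82 CPM). Krt6a, Sbsn, Dsg1a and Klf4, suprabasal markers outside the rule, summed to 977 to 1077 against 1391 to 1622 CPM in the Low group. In the High group they summed to 925 to 1392 against 1589 to 2260 CPM. Dissociation and stress genes summed to 2476 to 2571 against 2664 to 2878 CPM in the Low group and overlapped in the High group (1760 to 2326 against 1763 to 2647 CPM). Their part in the Arg1 difference was not tested. Cycling basal cells were deeper than other basal cells in every library (medians of 2878 to 13760.5 against 1882 to 9432.5 UMIs). With every cell thinned to 1000 UMIs and classed again from the thinned counts, which left 4 libraries with enough cells, the estimate was -2.69 ± 0.21. The median over all genes was -0.58 in that setting, beside -0.08 in the main one, so the size of this estimate is not comparable with the main one.

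The lower level in cycling cells was present at every keratin share that could be compared. Cells were divided by the Krt4 and Krt13 share into bins of 0 to 5%, 5 to 15%, 15 to 25%, 25 to 50%, 50 to 75% and 75 to 100%, and a library entered a bin with at least 20 cells. At a share under 5%, the median over libraries was 145 CPM in cycling and 413 CPM in other cells. Between 25% and 50% it was 1986 CPM in cycling cells (5 libraries) and 2792 CPM in other cells (6 libraries). The bins were set by the share alone, so above 25% they also held superficial cells. The part of superficial cells in these differences was not tested. Non-cycling intermediate cells, without superficial ones, averaged 1983 CPM. Cycling cells outside the basal layer, superficial ones included, averaged 1912 CPM. Arg1 was lower in the cycling cells of 6 of 6 libraries in the first bin and of 5 of 5 in each of the next 3. In non-cycling cells the median rose over the bins from 413 through 902, 1716, 2792 and 4468 to 5525 CPM, so Arg1 climbed along the keratin change within the basal range as well as above it.

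**Figure D2:**
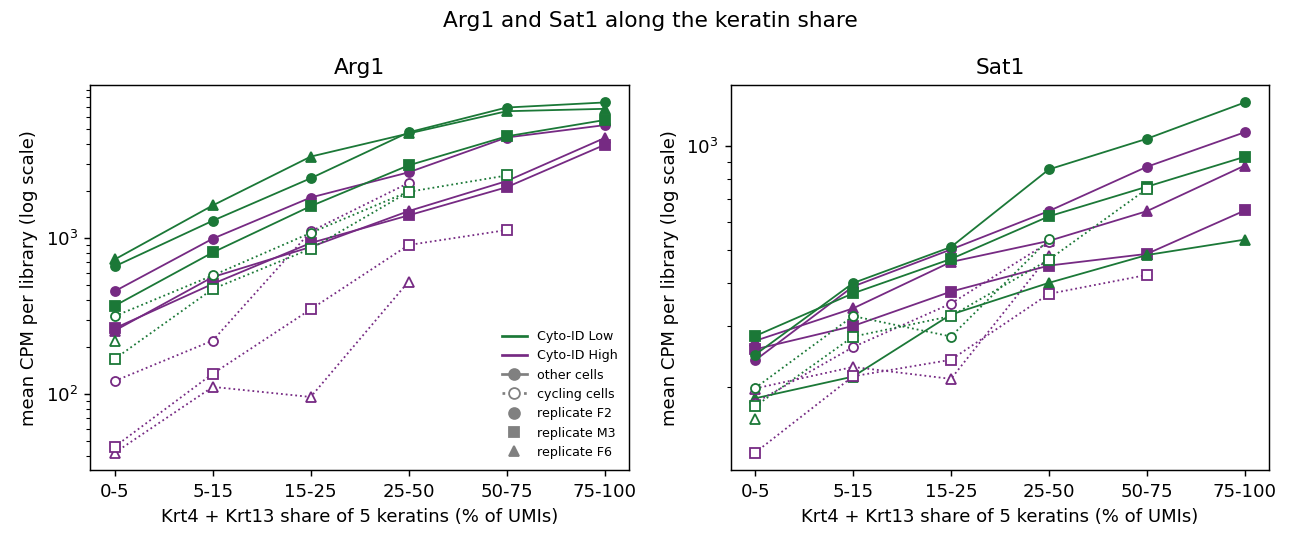
Mean CPM per library (log axes) of Arg1 and Sat1 in cells binned by their Krt4 and Krt13 share of 5 keratins (% of UMIs). Each line is 1 library, solid with filled symbols for non-cycling cells and dotted with open symbols for cycling cells. In non-cycling cells the median over libraries of both genes climbs from left to right. Cycling cells lie under the other cells of the same library in each bin that has both.

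Suprabasal cells held 1.84 to 5.30 times the Arg1 of other basal cells of the same library, and superficial cells 1.51 to 6.07 times that of suprabasal cells. The limma log2 differences were 1.97 ± 0.15 (adjusted p = 2.67e-07) and 1.76 ± 0.19 (adjusted p = 1.42e-05), each in the same direction in 6 of 6 libraries. With the basal limit lowered to 5%, a setting chosen after seeing the data, the first was 2.63 ± 0.16 and still passed. The summed macrophage list ranged from 33.2 to 59.1 CPM in superficial cells and from 4.47 to 13.8 CPM in other basal cells, moving with Arg1 through Cd68 and Itgam, while Adgre1 stayed at 0 in every library. Their part in the Arg1 difference was not tested.

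Between the sort groups, Arg1 was lower in the Cyto-ID High than in the Cyto-ID Low library of 3 of 3 same-labelled pairs in each population examined. Over all cells the levels were 3068, 1724 and 2891 CPM in Cyto-ID Low F2, M3 and F6 and 1444, 1151 and 845 CPM in Cyto-ID High. The means were 2561 ± 730 and 1147 ± 300 CPM (SD, n = 3), without overlap. Among all cycling cells, the class from which the gene was proposed, the levels were 796, 501 and 706 CPM against 300.4, 224 and 114 CPM, a 3.14-fold difference of means. In cycling basal cells it was 3.63-fold, and 8.42-fold in the F6 pair, whose Cyto-ID Low side has 77 cells.

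The ratio of group means was taken in each layer. In suprabasal cells the levels were 4925, 3172 and 3866 CPM in Cyto-ID Low and 1627, 756 and 1289 CPM in Cyto-ID High, 3.26-fold and without overlap. In intermediate cells the ratio was 2.63, also without overlap. In other basal cells (929, 627 and 1218 against 672, 411 and 396 CPM) and in superficial cells (7455, 5771 and 7110 against 5849, 4592 and 4864 CPM) the groups overlapped, with ratios of 1.88 and 1.33. The limma estimates, given without a test, were -1.52 in cycling, -0.72 in other basal, -1.52 in suprabasal and -0.40 in superficial cells on the log2 scale. Superficial cells were 28.0%, 15.9% and 25.5% of cells in Cyto-ID Low and 13.4%, 14.7% and 6.58% in Cyto-ID High, without overlap. The order of the libraries by this share was their order by Arg1 over all cells, apart from M3 and F2 of Cyto-ID High, which changed places. The part of this share in the difference over all cells was not tested. Other marker lists also separated the groups, some with Arg1 and some against it. In suprabasal cells the macrophage list averaged 19.9 ± 5.25 CPM in the Low group against 11.3 ± 2.87 CPM in the High group (SD, n = 3), and the epithelial list (Epcam, Cdh1 and Krt5) summed to 4869 to 6336 against 2456 to 3619 CPM, both without overlap. The epithelial list also separated the groups in intermediate cells (5983 to 6492 against 4021 to 4678 CPM) and over all cells (4721 to 5016 against 3438 to 4608 CPM). Cycling markers outside the gate (Ccnb1, Cdk1, Aurkb and Cenpf) summed over all cells to 20.2 to 68.0 CPM in the Low group and 71.6 to 92.0 CPM in the High group. In other basal cells the macrophage list summed to 11.4 to 13.8 against 4.47 to 9.82 CPM. In superficial cells it overlapped (38.3 to 57.3 against 33.2 to 59.1 CPM), while the epithelial list did not (4048 to 4496 against 2622 to 3554 CPM). The macrophage list overlapped in cycling basal cells (7.57 to 9.69 against 3.83 to 17.4 CPM), where the list of dissociation and stress genes summed to 2476 to 2571 CPM in the Low group and 1760 to 2326 CPM in the High group. Against the direction of Arg1, the superficial markers Tgm3 and Sprr3 were higher in the High group without overlap, at 37.5 to 45.4 against 10.3 to 28.6 CPM in other basal and 16.6 to 21.5 against 5.74 to 9.32 CPM in cycling basal cells. The part of these markers in the Arg1 difference was not tested.

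Arg2, the mitochondrial arginase, was near the floor. It ranged from 0 to 1.43 CPM over all cells and was at 0 in the Cyto-ID Low F6 library. It passed the filter of at least 1 CPM in 3 library values only where cycling cells entered, and no difference of it passed the test.

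Ass1 (chr2:31470207-31520672) and Asl (chr5:130011258-130029247) make arginine from citrulline. Ass1 was a basal transcript: 286, 220 and 114 CPM in other basal cells of Cyto-ID Low F2, M3 and F6 and 206, 142 and 119 CPM in Cyto-ID High. In suprabasal cells it was 144, 109 and 44.6 against 74.4, 48.3 and 39.2 CPM. The suprabasal level was lower than the basal level of the same library in 6 of 6 (limma log2 difference -1.06 ± 0.11, adjusted p = 4.90e-06). Levels differed between libraries as well, and the F6 libraries of both groups were the lowest in other basal cells. Asl stayed between 6.61 and 33.2 CPM in other basal, intermediate, suprabasal and superficial cells, and no layer difference of it passed the test (suprabasal minus basal 0.12 ± 0.27, limma, adjusted p = 0.76). In CPM its suprabasal level was below the basal level in 4 libraries and above it in 2. Its superficial level was below the basal level in 6 of 6 libraries, a contrast that was not tested. Arg1 and Ass1, which break down and help build arginine, ran in opposite directions from basal to suprabasal cells.

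Oat (chr7:132557478-132576398), ornithine aminotransferase, fell at each step from the cycling base upwards. Its mean over libraries was 106 ± 35.5 CPM in cycling basal, 80.0 ± 25.7 in other basal, 35.8 ± 13.8 in suprabasal and 18.3 ± 6.25 in superficial cells (SD, n = 6). Each step down was seen in 6 of 6 libraries. In limma, cycling minus other basal cells was 0.30 ± 0.07 (adjusted p = 0.0052), suprabasal minus basal -0.91 ± 0.14 (adjusted p = 0.00016) and superficial minus suprabasal -0.61 ± 0.17 (adjusted p = 0.018). The last call was lost without the Cyto-ID Low M3 library (limma, -0.63 ± 0.22, adjusted p = 0.052, range over alternatives 0.0013 to 0.094) and with only cells of at least 1000 genes (adjusted p = 0.059), and the first and last were lost with thinned cells (adjusted p = 0.28 and 0.094).

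On the polyamine side, Odc1 (chr12:17544794-17551505), ornithine decarboxylase, was nearly level up to the suprabasal layer. It was 59.2 ± 10.0 CPM in cycling basal, 50.3 ± 4.79 in other basal, 50.4 ± 13.7 in suprabasal and 37.9 ± 8.79 in superficial cells (SD, n = 6). No within-library contrast of it passed the test. The largest, suprabasal minus basal, was 0.21 ± 0.14 (limma, adjusted p = 0.28), although in CPM it was higher in 3 libraries and lower in 3. Superficial cells were below other basal cells in 5 of 6 libraries, a contrast that was not tested. Odc1 was above the level of other basal cells in the cycling basal cells of 5 of 6 libraries, by at most 1.47 times.

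Amd1 (chr10:40287458-40302186), S-adenosylmethionine decarboxylase, which supplies the aminopropyl group for both synthases, fell at the surface. It was 61.1 ± 6.04 CPM in cycling basal, 59.9 ± 5.55 in other basal, 41.7 ± 5.52 in suprabasal and 19.2 ± 4.31 in superficial cells (SD, n = 6). The superficial step was -0.80 ± 0.17 (limma, adjusted p = 0.0028), down in 6 of 6 libraries, and its call was lost with thinned cells (adjusted p = 0.16). The suprabasal step, with a lower CPM in 6 of 6 libraries, did not pass (-0.26 ± 0.12, limma, adjusted p = 0.11) but passed without TMM scaling (-0.52 ± 0.12, adjusted p = 0.0038).

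Srm (chr4:148591503-148594993), spermidine synthase, was low in superficial cells. In other basal cells it was (F2, M3, F6) 21.6, 34.9 and 36.0 CPM in Cyto-ID Low and 29.9, 70.1 and 40.2 CPM in Cyto-ID High. In superficial cells it was 3.19, 2.08 and 2.81 against 2.04, 9.36 and 7.04 CPM. The limma differences were -1.17 ± 0.31 from basal to suprabasal (adjusted p = 0.0097) and -1.28 ± 0.39 from there to superficial cells (adjusted p = 0.028). The second was lost in 7 of 18 alternatives: without Cyto-ID Low M3 or Cyto-ID High F2, M3 or F6, without the low-value filter, with a pseudocount of 0.1 CPM and with thinned cells (limma, adjusted p from 0.0073 to 0.72 over all alternatives). In cycling against other basal cells Srm differed by 0.01 ± 0.13 (limma, adjusted p = 0.98).

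Sms (chrX:157443855-157492287), spermine synthase, fell from basal to suprabasal cells. It was 34.9 ± 10.2 CPM in other basal, 11.7 ± 5.79 in suprabasal and 10.6 ± 4.28 in superficial cells (SD, n = 6). The step from basal to suprabasal was -1.43 ± 0.24 (limma, adjusted p = 0.00047), down in 6 of 6 libraries, and the next step did not pass (0.27 ± 0.27, limma, adjusted p = 0.50). In CPM without TMM scaling the superficial level was below the suprabasal level in 4 libraries and above it in 2. The log2 difference of this step ran from -0.50 to 0.47 over the alternatives, so its sign is not settled.

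**Figure D3:**
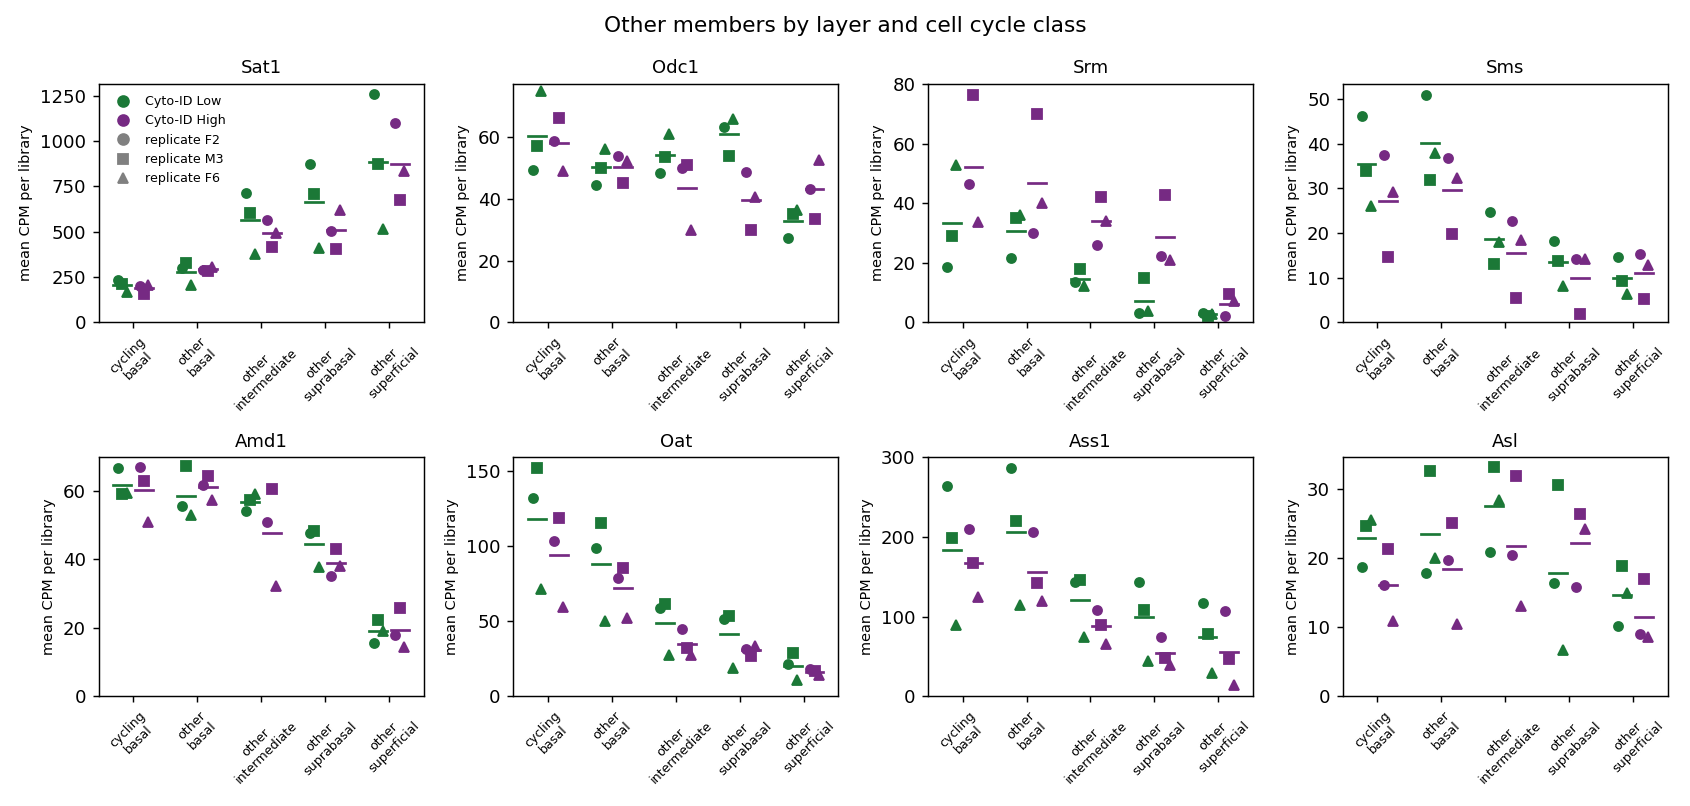
Mean CPM per library (linear axes from 0, a scale for each gene) of 8 members in cycling basal cells and 4 layers of non-cycling cells. Symbols are libraries and lines are means of 3 libraries. Sat1 rises to between 514 and 1261 CPM in superficial cells. Srm, Sms, Amd1, Oat, Ass1 and Asl are lower there than in other basal cells of every library, and Odc1 in 5 of 6.

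Sat1 (chrX:155213132-155216449), which acetylates spermidine and spermine and so starts their breakdown and export, followed Arg1. It was 234, 210 and 168 CPM in cycling basal cells of Cyto-ID Low F2, M3 and F6 and 201, 158 and 204 CPM in Cyto-ID High. In other basal cells the values were 299, 327 and 206 against 289, 283 and 308 CPM, and in superficial cells 1261, 872 and 514 against 1101, 676 and 835 CPM. Cycling basal cells were below other basal cells in 6 of 6 libraries (limma, -0.63 ± 0.07, adjusted p = 3.22e-05). The steps to suprabasal (1.25 ± 0.10, limma, adjusted p = 4.72e-07) and to superficial cells (0.89 ± 0.11, limma, adjusted p = 6.18e-05) were upwards in 6 of 6 libraries. Along the keratin bins its median in non-cycling cells went from 252 to 903 CPM, and cycling cells were lower in 6 of 6 libraries of the first bin and 5 of 5 of each of the next 3.

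**Figure D4:**
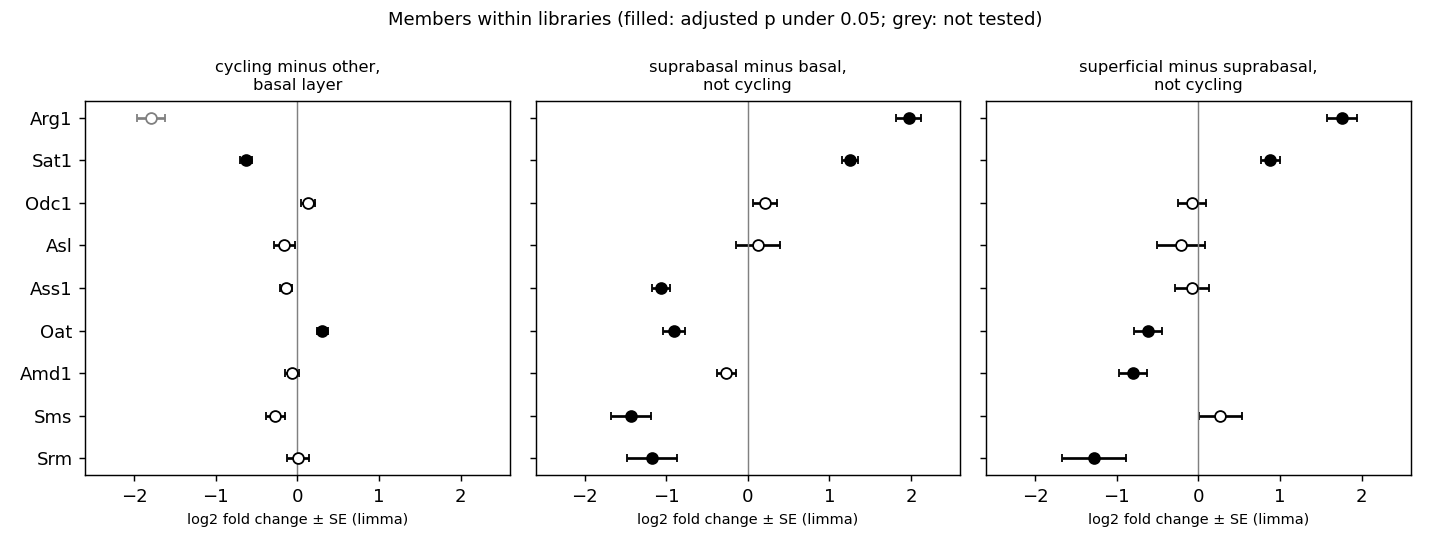
Log2 fold change with its SE (limma, 6 libraries, library as block) of 9 members in 3 within-library contrasts. Filled points have an adjusted p under 0.05, and the grey point, Arg1 in cycling cells, was not tested; Arg1 and Sat1 are lower in cycling cells and higher at each step upwards, and Oat runs the other way in all 3.

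Counted over the set without Arg1, 2 of 9 tested members passed in cycling against other basal cells (1 lower, 1 higher), beside 20.4% of 12204 genes (10.9% lower, 9.46% higher). The median log2 difference of the 10 members was -0.10, beside -0.08 over all genes. With Arg1 counted, 6 of 9 tested members passed from basal to suprabasal cells (Arg1 and Sat1 higher, 4 lower), beside 31.8% of 12056 genes (13.1% higher, 18.7% lower), with medians of -0.26 and -0.18. From suprabasal to superficial cells, again with Arg1, 5 of 9 passed (Arg1 and Sat1 higher, 3 lower), beside 25.8% of 11528 genes (16.5% higher, 9.34% lower), with medians of -0.08 and 0.11. Arg2 did not pass the filter in the layer contrasts. The direction of calls over all genes depended on scaling: 1584 higher and 2250 lower calls from basal to suprabasal cells became 989 and 4148 without TMM, 1900 and 1077 from suprabasal to superficial cells became 1012 and 2046, and 1155 and 1329 in cycling cells became 1540 and 821. Leaving TMM out moved the median over all genes by -0.22, -0.26 and 0.08 in these contrasts, and no called member changed its direction.

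In the comparison of the sort groups, none of the tested members other than Arg1 passed (8 in each population, and Arg2 as the ninth in cycling cells). The share of all genes called was 0.163% of 11645 in all cells, and it was as low in cycling cells (0.0602% of 11634), other cells (0.138% of 11573), other basal cells (0.249% of 11626), suprabasal cells (0.327% of 10719) and superficial cells (0% of 10593, where limma gave 190 genes at an unadjusted p under 0.05). With the replicate labels as a block the calls were 64 in place of 19 in all cells, 11 in place of 7 in cycling, 96 in place of 16 in other, 108 in place of 29 in other basal, 136 in place of 35 in suprabasal and 2 in place of 0 in superficial cells. Odc1, Amd1 and Sat1 differed in all cells by 0.18 ± 0.21, 0.23 ± 0.20 and -0.09 ± 0.27. In suprabasal cells Odc1 was lower in the High group in 3 of 3 pairs and without overlap (means of 39.7 against 61.0 CPM), and the difference of -0.40 ± 0.32 did not pass (limma, adjusted p = 0.75). With 3 libraries a side, differences of this size could not be told from the spread. The share of all genes without overlap between the sort groups was not counted in any population. A lack of overlap of a member or marker list is therefore given as a description only.

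Srm came nearest to a difference between the groups. In suprabasal cells it was 3.26, 14.9 and 3.82 CPM in Cyto-ID Low F2, M3 and F6 and 22.3, 42.7 and 20.9 CPM in Cyto-ID High, without overlap and higher in 3 of 3 pairs. The log2 difference of 2.24 ± 0.58 did not pass (limma, adjusted p = 0.19). With the replicate labels as a block it did (adjusted p = 0.033), as it did without the Cyto-ID Low M3 library (2.86 ± 0.59, limma, adjusted p = 0.043); over all alternatives the adjusted p ranged from 0.033 to 0.64. The same-labelled F6 libraries were only weakly alike in these cells (r = 0.085). These populations held 75 to 363 cells a library. The values of 3.26 and 3.82 CPM in Cyto-ID Low F2 and F6 are near the floor and rest on few UMIs. Even the deeper Cyto-ID Low F2 library held only 110 suprabasal cells, with a median of 8849.5 UMIs. In other basal cells the difference was 0.70 ± 0.37 (limma, adjusted p = 0.80), with groups that overlapped. Srm was also higher in the High group in 3 of 3 pairs and without overlap over all cells and in intermediate cells. The means, High against Low, were 38.7 against 21.8 CPM and 34.0 against 14.5 CPM. Over all cells its log2 difference ran from 0.56 to 1.19 over the alternatives (limma, lowest adjusted p = 0.14). Intermediate cells were not tested. Whether the difference of the sort groups itself differed between cycling and other basal cells was tested for the members other than Arg1, and none passed, nor did any of 12204 genes (limma, 478 at an unadjusted p under 0.05). For Arg1 this difference was -1.04, as a description, with a range of -1.41 to -0.56 over the alternatives. The same question for suprabasal against basal cells, added after seeing the data, gave no member past the threshold, beside 0.0166% of 12056 genes.

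The rest of the pathway was read from a list of 42 genes for transport, the urea cycle and other uses of arginine, the proline arm, control and breakdown of polyamines, methionine salvage and hypusine. Otc, Cps1 and Nags, enzymes of the mitochondrial part of the urea cycle, were at 0 in 6 of 6 libraries. In cycling against other basal cells, 6 of 31 tested genes passed (3 higher, 3 lower), a share near the 20.4% of all genes. The 3 lower calls were lost without TMM scaling (limma, adjusted p = 0.060 to 0.076), and the 3 higher ones were not. Slc7a1, a transporter that imports arginine, was higher (20.2 ± 5.70 CPM in other and 31.7 (16.3 to 48.4) in cycling basal cells, limma log2 difference 0.49 ± 0.15, adjusted p = 0.040). Oaz1, antizyme, which sends ornithine decarboxylase to the proteasome, and Dohh, of the hypusine pathway, were also higher (0.14 ± 0.04 and 0.28 ± 0.09). Smox and Paox, oxidases of polyamines, and Dhps, the other hypusine enzyme, were lower (-0.48 ± 0.13, -0.37 ± 0.10 and -0.46 ± 0.14).

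From basal to suprabasal cells, 6 of 29 tested genes of the list were higher and 4 lower, near the share of all genes (31.8%; 13.1% higher, 18.7% lower). Without TMM, 5 of the 6 higher calls were lost (Azin1, Azin2, Mat2a, Dohh and Eif5a; limma, adjusted p = 0.10 to 0.23), and that of Smox was not. Smox, spermine oxidase, was among the higher ones at both steps: it went from 43.0 ± 20.6 CPM in other basal through 66.3 ± 45.4 in suprabasal to 126 ± 48.7 in superficial cells (SD, n = 6), with limma differences of 0.70 ± 0.15 (adjusted p = 0.0024) and 1.45 ± 0.17 (adjusted p = 3.28e-05). Paox went the other way, from 38.1 ± 9.62 through 21.9 ± 6.40 to 9.35 ± 2.04 CPM, and passed at both steps. Azin1, an antizyme inhibitor, was higher at both steps (0.46 ± 0.14 and 0.53 ± 0.13). Azin2, Mat2a, Dohh and Eif5a were the other higher genes at the first step, and Mtap, Gamt, Slc3a2 and Paox the lower ones.

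From suprabasal to superficial cells, 5 of 27 tested genes of the list were higher and 5 lower. Over all genes 16.5% were higher and 9.34% lower. Of 6 tested genes for the control and breakdown of polyamines, 4 were higher (Smox, Oaz1, Oaz2 and Azin1), and Paox was lower. Without TMM, Smox (1.15 ± 0.20) and Oaz2 (0.73 ± 0.20) still passed, whereas Azin1 (0.22 ± 0.15) did not, and Oaz1 was at -0.0017 ± 0.099. Eif5a, the only protein known to carry hypusine together with its paralog, was 1022 ± 328 CPM in suprabasal and 442 ± 151 CPM in superficial cells (limma, -0.90 ± 0.11, adjusted p = 3.28e-05). Pycrl, an enzyme of proline synthesis, was lower (-0.96 ± 0.27), as was Slc7a1 (-1.14 ± 0.33). Slc7a7 was higher (1.20 ± 0.36) at levels of at most 3.24 CPM. In the comparison of the sort groups, none of the tested genes of this list passed in any of the 6 populations.

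Over 30 values (6 libraries by 5 populations: cycling, and the 4 layers of non-cycling cells), the genes whose log2 level was most like that of Arg1, among 6911 with a mean of at least 10 CPM, were Ecm1 (Pearson's r = 0.98), Ifi209 (0.98), Enpp3 (0.98), H2-K1 (0.98), Afdn (0.98), Tmbim1 (0.98), Cldn7 (0.98) and Dapp1 (0.97). Ecm1 encodes a secreted matrix protein and Cldn7 a tight junction protein. Of the members, Sat1 stood at 0.87, rank 271, whereas Srm (-0.81), Oat (-0.76) and Amd1 (-0.70) were the most opposed. The points share libraries and layers, so these coefficients describe the layer pattern and carry no test.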

How the data were processed

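The members and the gene lists were chosen with earlier results of these data known. Values deposited by the authors are natural log values of 1 plus a cell's UMI share times 10000, as read from the values; 100% of them gave whole UMIs within a tolerance of 1e-06. Cell Ranger 6.0.0, Seurat 4 and the mm10 (GRCm38) build are named, per the submitters' processing notes; counting rules, annotation and cell filter are not given in the sources used here. Coordinates are GENCODE's and promoters RefSeq's, both GRCm38.

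Recovered UMIs were turned into CPM per cell and averaged per library and population (at least 50 cells a library). Means were scaled by TMM and tested as log2(CPM + 1) with limma 3.58.1 (R 4.3.3), which understates the fold changes of low genes; genes needed 1 CPM in 3 library values, and p-values were adjusted by Benjamini-Hochberg over all genes, with a threshold of 0.05. Within-library contrasts had the library as a block. Tested on simulated data, a log2 fold of 1 was recovered for 78% of genes in cycling against other basal cells and 7% in Cyto-ID High against Low cycling cells. A log2 fold of 2 was recovered for 100% and 65%. From basal to suprabasal cells, log2 folds of 1 and 2 were recovered for 60% and 95% of genes. In Cyto-ID High against Low over all cells they were recovered for 13% and 85%. Only genes above a low-level limit were given a fold, so these rates do not cover genes near the floor. The sort groups in suprabasal cells were not simulated. The members are all named, as are genes of the wider list that passed, apart from a result that is not reported here, and the 8 genes most like Arg1. No doublet caller was run; the 5% of cells with the most UMIs were dropped in 1 alternative. Cells with fewer than 10 keratin UMIs (1.01% to 14.8% a library) had no layer, and the superficial limit was set from the panel's own distribution. Fewer transcripts per cell and less complete capture cannot be told apart in a CPM.

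Replicate labels were checked for pairing: deviations from group means correlated between same-labelled libraries at 0.76 (F2), 0.58 (M3) and 0.15 (F6) over all cells, and at 0.40, 0.34 and 0.07 in cycling cells. In other basal cells the correlations were 0.66, 0.62 and 0.15. The main fit of the sort groups has no block; the blocked fit is an alternative, and its counts stand beside the main ones. Alternatives covered scaling, filter, pseudocount, summed UMIs, thinning, the cycling gate, layer limits, the block and each library left out.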

Additional observations from a re-analysis of the deposited data

Results flagged for a closer look

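In CPM without TMM scaling, the change of Odc1 from other basal to suprabasal cells pointed in opposite directions in the sort groups. It was upwards in each Cyto-ID Low library, with a mean log2 difference of 0.28 (0.10 to 0.51), and downwards in each Cyto-ID High library, with a mean of -0.36 (-0.57 to -0.14). A test of this difference, added after its values were seen and run with TMM scaling, gave -0.58 ± 0.24. It did not pass (limma, adjusted p = 0.70, where 2 of 12056 genes passed). Leaving TMM out moved the median of all genes by -0.22 from basal to suprabasal cells. The direction within a group can therefore depend on scaling. Ass1 did the same in cycling against other basal cells, also without TMM. The mean log2 difference was -0.20 in Cyto-ID Low (-0.35 to -0.12) and 0.11 in Cyto-ID High (0.03 to 0.23). Leaving TMM out moved the median of all genes by 0.08 in this contrast. The test of the Ass1 difference between the groups, with TMM scaling, gave 0.35 ± 0.13 and did not pass (limma, adjusted p = 0.90).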

How the results depend on the processing

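No member reversed a called direction under any of the alternatives run. Sat1 passed in the 3 within-library contrasts and Arg1 in the 2 layer contrasts under every alternative, as did Ass1 and Oat at the suprabasal step. From suprabasal to superficial cells the number of members past the threshold was 5, against 2 with cells thinned to 1000 UMIs and 3 to 5 with 1 library left out (3 without Cyto-ID Low M3). At the suprabasal step, Srm was lost without the low-value filter (limma, adjusted p = 0.071) and with layer limits of 15 and 60% (0.052, 5 libraries), and Sms with thinned cells (0.11). At the superficial step, thinning lost Amd1, Oat and Srm. In suprabasal cells, Cyto-ID High against Low gave 0 members, 1 with the replicate block (Srm) and 0 to 1 with 1 library left out; in the other populations of that comparison neither changed the count of 0 members, and the replicate block changed no other call of a member. Over all genes the number of calls ranged from 1001 to 3108 in cycling cells (main 2484), 2762 to 5137 from basal to suprabasal (3834), 1008 to 3336 from suprabasal to superficial (2977), and 0 to 136 between the sort groups in any population. Thinning left 4 libraries in cycling basal cells and the stricter gate 5. Depth limits the low members: Srm, Sms and Asl rest on few UMIs in the shallow libraries, as does Srm in the suprabasal cells of Cyto-ID Low F2.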
